A study of Mus musculus with 113 samples.

Results

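Single 8-cell mouse embryos that had received either the base editor or its guide, and never both, were examined as the pair of control groups of a base-editing experiment on *Nr5a2*. The 16 libraries were chosen by their labels, 8 embryos injected with BE (the editor) and 8 with sgRNA (the guide), out of 113 samples in the series, 92 of which had an FPKM file. The embryos were wild type and came from superovulated C57BL/6N females mated with PWK/PhJ males. Each was injected as a zygote with 100 ng/μl of BE mRNA alone or with 100 ng/μl of sgRNA alone, and was collected at the 8-cell (8C) stage. There was no uninjected group at this stage in the comparison, so what both injections share cannot be seen here. The 14 embryos that received BE and sgRNA together are not compared here.

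The editor named in the methods is a cytosine base editor, a Cas protein that cuts 1 strand at most, joined to a human cytidine deaminase. The deaminase turns C into U in the stretch of DNA opened by the guide. The guide directs the editor to *Nr5a2*, which encodes an orphan nuclear receptor, a transcription factor that binds DNA through zinc fingers. Without a guide the editor has no site, and without the editor the guide has no enzyme, so each group is a control for the injection and not for the edit. At the 8C stage the embryo runs on its own genome, the cells compact and polarise, and the first bias towards trophectoderm or inner cell mass (ICM) can be seen in their transcripts. Female embryos carry 2 X chromosomes, 1 of which, that from the father, begins to be silenced by the *Xist* RNA during cleavage, and male embryos carry 1 X and a Y.

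Libraries had been made by Smart-seq2, a full-length RNA-seq protocol without strand information for very small inputs, and the deposited values were FPKM (a fragment count divided by the length of the transcript and the size of the library). The column names of the deposited files also carried a library number and, for BE embryos, the name of an editor. BE embryos 1 to 4 were named BE4 with numbers 48 to 51, and BE embryos 5 to 8 were named eBE with numbers 38 to 41. The sgRNA columns named no editor, but embryos 1 to 4 had numbers 34 to 37, next to the eBE libraries, and embryos 5 to 8 had numbers 52 to 55, next to the BE4 libraries. The embryos were therefore also compared within an eBE set and a BE4 set of 4 BE and 4 sgRNA embryos each. This assignment rests on the order of the numbers alone. The methods describe 1 editor, so whether BE4 and eBE stand for different editors is not known. If they do, the BE group mixes editors, and the editor cannot be told apart from the set.

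The 4 sgRNA embryos of the BE4 set stood apart from the other 12 libraries. Their FPKM summed to between 207918 and 268257, against 413397 to 474480 in the others, and 7645 to 8155 genes reached an FPKM of 1 in them, against 8338 to 9251. *Rn45s*, the 45S precursor of ribosomal RNA, was listed at 0 in all 4 and at 14297 to 34817 FPKM in the other 12. It was the only gene listed at 0 in those 4 and above 3 FPKM in every other library. Read counts were not part of the files, so depth in reads is unknown. A relative depth, read from the spacing of low FPKM values, lay between 0.787 and 1.36, and the 4 libraries (0.865, 1.19, 0.793 and 0.999) were within that range. On the first principal component of all 16 embryos, which held 37.7% of the variance, these libraries separated from the rest. The main counts, differences and list medians are therefore also given without sgRNA embryos 5 to 8, an alternative that was added after the data had been seen. Whether their low sums reflect the embryos or the libraries was not tested.

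**Figure D1:**
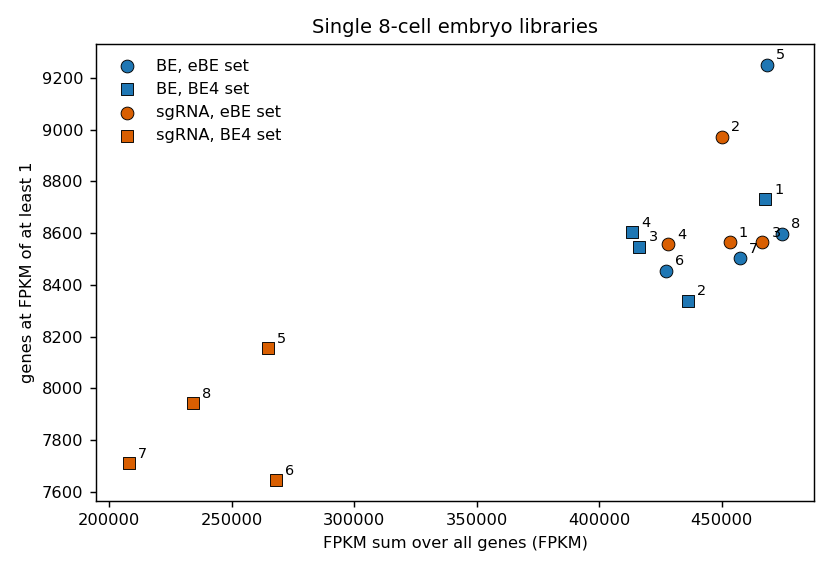
FPKM sum of each library (x axis, FPKM) against the number of genes at an FPKM of at least 1 (y axis) for the 8 BE (blue) and 8 sgRNA (orange) embryos, with circles for the eBE set, squares for the BE4 set and the replicate number beside each point. The 4 sgRNA embryos of the BE4 set lie at sums of 207918 to 268257, and the other 12 at 413397 to 474480.

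Over all 16 embryos the FPKM sum averaged 445142 ± 24824 in BE and 346655 ± 111950 in sgRNA embryos (SD, n = 8 each), with p = 0.0469 in an exact permutation test (two-sided) and 0.0946 after adjustment over the 4 values compared. The number of genes at an FPKM of 1 was 8628 ± 277 in BE and 8264 ± 474 in sgRNA embryos (exact permutation p = 0.0821, adjusted 0.0946). With sgRNA embryos 5 to 8 left out, the sums differed by -4312 FPKM, BE minus sgRNA (exact permutation p = 0.784), and the gene numbers by -36.75 (exact permutation p = 0.808), so both differences turned round. Within the BE4 set every BE embryo was above every sgRNA embryo for both values, at the smallest p that 4 against 4 embryos allow (exact permutation, 0.0286, adjusted 0.0571).

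Marker genes of the stage in the labels and of other cells were examined. All 45 measured members of the study's list of 8C genes passed the filter on low values. So did 485 of 558 late 2-cell genes and 13 of 15 4-cell genes, so passing the filter does not tell these stages apart. None of 8 transcripts of late sperm cells and 2 of 17 genes of the cumulus and granulosa cells around the egg passed it. The 17 follicle cell genes summed to between 7.89 and 36.0 FPKM per embryo, and the sperm genes to at most 3.63 FPKM. *Pou5f1* (OCT4), the factor that maintains pluripotency, was at 129 to 323 FPKM in BE embryos and at 90.1 to 294 FPKM in 7 of the sgRNA embryos. In sgRNA embryo 7 it was at 9.10 FPKM.

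The first question was whether editor and guide, each given alone, leave different transcriptomes. Gene by gene, no difference passed the limits in use for these data. The 9267 genes whose FPKM averaged 1 or more in either group were kept, and log2(FPKM + 1) was compared with limma, which shares the estimate of variance across genes. None of them (0.0%) reached an adjusted p of 0.01 with a log2 difference of 2, and none (0.0%) an adjusted p of 0.05 in either direction. The smallest adjusted p was 0.32. At an unadjusted p of 0.05 there were 1358 genes higher in BE (14.7%) and 57 lower (0.615%), and the median difference over all genes was 0.33 on the log2 scale in favour of BE.

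The lean towards BE was absent without sgRNA embryos 5 to 8. With these left out the median difference was -0.02 over 9322 genes. Again no gene was called, and 215 genes were higher (2.31%) and 167 lower (1.79%) at an unadjusted p of 0.05. Within the eBE set the median was 0.04, no gene of 9325 was called, and 222 were higher (2.38%) and 118 lower (1.27%) at an unadjusted p of 0.05. Scaling all 16 libraries by the median ratio of their genes, which centres the differences by construction, moved the median to -0.02. No gene was called after it, and 298 were higher and 346 lower at an unadjusted p of 0.05.

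Within the BE4 set the picture differed. There, 976 of 9330 genes (10.5%) were higher in BE at an adjusted p of 0.05, 9 (0.0965%) were lower, and 17 (0.182%) passed the stricter limits. Of the 976, 66 had passed the filter through the BE embryos alone, and of the 9, 1 through the sgRNA embryos alone. The median gene was higher by 0.61 on the log2 scale. After median-ratio scaling, which removes that shift, 1 gene passed either limit. The change of the difference from 1 set to the other, tested as an interaction in the fit over 16 embryos, passed an adjusted p of 0.05 for 424 genes, of which 416 (4.49%) leaned further towards BE in the BE4 set and 8 (0.0863%) the other way. Of these 424 genes, 390 were also among the 985 called within the BE4 set (92.0% of the former and 39.6% of the latter). After median-ratio scaling 9 genes passed an adjusted p of 0.05 for the interaction, 4 further towards BE in the BE4 set and 5 the other way. The stricter limits were then passed by 1 gene, against 25 (0.27%) before scaling. Since all 4 sgRNA embryos of this set had the low FPKM sums, the set of libraries and the injection cannot be told apart in it.

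**Figure D2:**
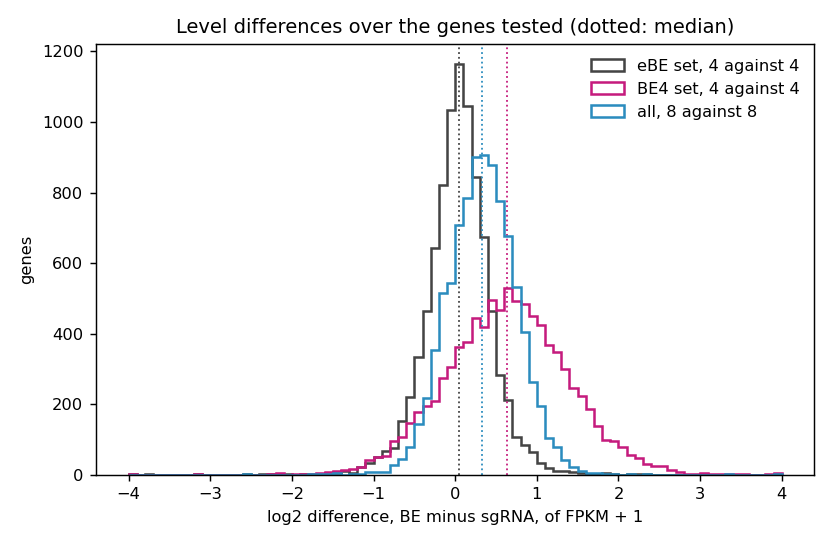
Histograms of the log2 difference, BE minus sgRNA, over the genes tested in 16 embryos (x axis, log2(FPKM + 1) units, values beyond the axis drawn at its ends; y axis, genes), for all 16 embryos, for the eBE set and for the BE4 set, with dotted lines at the medians. The median lies at 0.33 for 16 embryos, at 0.05 for the eBE set and at 0.63 for the BE4 set over the same genes.

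*Nr5a2* itself, the target of the guide (mm9 chr1:138740161-138857004, minus strand), was expressed in every embryo. In BE embryos 1 to 8 it was at 77.6, 69.6, 38.3, 33.1, 35.2, 44.2, 51.5 and 50.8 FPKM. In sgRNA embryos 1 to 8 it was at 42.3, 40.5, 41.3, 51.5, 29.8, 81.3, 7.98 and 44.9 FPKM. The highest and the lowest values were both in sgRNA embryos, and the groups overlapped over most of their range. The means were 50.0 ± 16.1 and 42.4 ± 20.5 FPKM (SD, n = 8 each), with a log2 difference of 0.37 (SE 0.35, limma adjusted p = 0.58). Median-ratio scaling turned the sign (-0.05), and without sgRNA embryos 5 to 8 the difference was 0.13 (adjusted p = 0.98).

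The other nuclear receptors that the study had knocked down overlapped between the groups as well. *Rarg*, a retinoic acid receptor, was at 14.5 to 45.7 FPKM in BE and at 4.17 to 39.5 FPKM in sgRNA embryos. Its means were 25.9 ± 10.3 and 20.4 ± 11.4 FPKM (SD, n = 8 each; log2 difference 0.48, limma adjusted p = 0.50). *Nr1h3*, the oxysterol receptor LXRα, was at 4.36 to 27.4 and at 5.81 to 26.8 FPKM, with means of 15.5 ± 7.68 and 12.9 ± 6.20 FPKM (0.19, limma adjusted p = 0.78). *Nr2c2*, the orphan receptor TR4, was at 4.96 to 25.6 and at 4.16 to 20.1 FPKM (0.20, limma adjusted p = 0.77). *Nr5a2* had the highest mean of these receptors per unit of transcript length in both groups. Without sgRNA embryos 5 to 8 the log2 differences were -0.15 for *Rarg*, 0.25 for *Nr1h3* and 0.22 for *Nr2c2*. Median-ratio scaling, which lowers the differences of all genes alike, gave 0.07, -0.22 and -0.21.

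Lineage regulators showed the same overlap. *Nanog*, a factor of the ICM and epiblast, was at 23.2, 22.4, 9.80, 23.6, 31.7, 9.29, 2.42 and 4.47 FPKM in BE embryos 1 to 8. In sgRNA embryos 1 to 8 it was at 17.1, 20.7, 10.0, 25.8, 0.996, 4.33, 9.79 and 1.94 FPKM. The low values were in BE embryos 7 and 8 and in sgRNA embryos 5, 6 and 8, so they occurred with either injection and in either set. The log2 difference was 0.57 (SE 0.56, limma adjusted p = 0.59), and -0.48 without sgRNA embryos 5 to 8. Its value was 2.2 within the BE4 set and -1.05 within the eBE set, and the change between the sets passed the test (limma, adjusted p = 0.042). *Gata6*, which marks the primitive endoderm, was at 31.5 to 67.3 FPKM in BE and at 34.3 to 82.1 FPKM in sgRNA embryos other than embryo 7, which had 6.29 FPKM. *Klf5*, needed for the blastocyst lineages, was at 72.4 to 242 FPKM in BE embryos. It was at 210 to 335 FPKM in sgRNA embryos 1 to 4 and at 9.06 to 128 FPKM in sgRNA embryos 5 to 8. *Sox2*, which the study places among its late ICM genes, was below 1 FPKM in every embryo and was not tested.

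**Figure D3:**
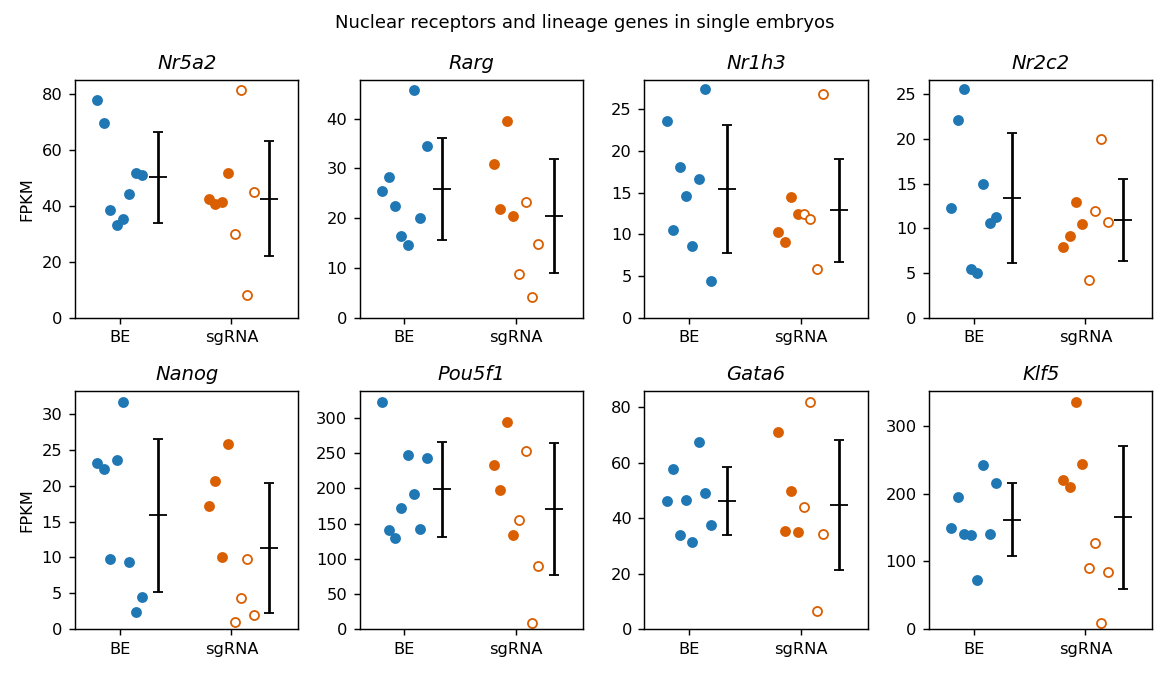
FPKM per embryo (y axis) of the nuclear receptors *Nr5a2*, *Rarg*, *Nr1h3* and *Nr2c2* and of the lineage genes *Nanog*, *Pou5f1*, *Gata6* and *Klf5* in BE and sgRNA embryos, with open points for sgRNA embryos 5 to 8 and bars for the mean ± SD (n = 8). The groups overlap for all 8 genes, and sgRNA embryo 7 is the lowest embryo for *Nr5a2* (7.98), *Pou5f1* (9.10), *Gata6* (6.29) and *Klf5* (9.06).

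Embryo 7 of the sgRNA group was low for many genes. Its median correlation with the other embryos of its group was 0.76, against 0.831 to 0.888 for the other sgRNA embryos. BE embryos had 0.889 to 0.919 within their own group. *Actb*, the cytoskeletal actin, was at 84.6 FPKM in sgRNA embryo 7 and at 164 to 1576 FPKM in the other 15.

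Only 3 of 9267 genes (0.0324%) had every BE embryo above every sgRNA embryo, and none (0.0%) had every BE embryo below. Within the eBE set of 4 against 4 embryos, 155 genes (1.66%) were without overlap and higher in BE and 69 (0.74%) lower, and within the BE4 set 1777 (19.0%) and 71 (0.761%). *Slc25a51*, the carrier of NAD into mitochondria, was at 14, 12.1, 7.56, 9.04, 9.01, 8.74, 12.2 and 9.05 FPKM in BE embryos. In sgRNA embryos it was at 7.23, 4.91, 5.98, 6.38, 5.07, 3.40, 3.56 and 4.85 FPKM. The gap between the groups was narrow, from 7.23 to 7.56 FPKM, and sgRNA embryos 1 to 4 were on the sgRNA side too. The log2 difference was 0.87 (SE 0.22, limma unadjusted p = 0.00089, adjusted p = 0.32), and it was 0.64 without sgRNA embryos 5 to 8 and 0.59 within the eBE set. *Pnp*, a purine nucleoside phosphorylase, was at 22.7 to 59.8 FPKM in BE and at 3.44 to 18.8 FPKM in sgRNA embryos. Its 4 sgRNA embryos of the eBE set lay between 16.6 and 18.8 FPKM. The log2 difference of 1.30 became 0.84 within the eBE set (limma, adjusted p = 0.99). *Hmga2-ps1*, a pseudogene whose reads may be shared with its parent gene, was at 0.455 to 2.54 FPKM against 0 to 0.422 FPKM.

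The genes with the smallest p for higher values in BE were *Gm14005*, *Foxn2*, *Fkbp3*, *Pglyrp1*, *Soat1*, *Kti12*, *Acot8*, *Sycn*, *Slc25a51* and *Amd2*. All 10 stayed higher in BE under every setting tried, although none was called. The settings reuse the embryos from which the 10 were picked, so a kept sign is not separate evidence. *Foxn2*, a forkhead transcription factor, was at 23.3 to 45.2 FPKM in BE embryos, at 15.3 to 28.9 FPKM in sgRNA embryos 1 to 4 and at 3.52 to 9.72 FPKM in sgRNA embryos 5 to 8 (log2 difference 1.39). *Fkbp3*, a prolyl isomerase, was at 121 to 231 FPKM in BE embryos, at 91.7 to 152 FPKM in sgRNA embryos 1 to 4 and at 44.4 to 64.3 FPKM in the rest (1.19, SE 0.28). *Sycn*, known as a protein of secretory granules in the pancreas, was at 187 to 728 FPKM in BE and at 18.2 to 227 FPKM in sgRNA embryos (1.84). For *Foxn2* and *Fkbp3*, sgRNA embryos 1 to 4 overlapped with the BE embryos and were all above sgRNA embryos 5 to 8, whereas for *Sycn* they overlapped with both. *Amd2* had the largest difference of the 10 (3.38). It is a near-identical copy of *Amd1*, which encodes the decarboxylase for polyamine synthesis, so its FPKM depends on how shared reads were split.

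Among the genes lower in BE, *Lars2*, the mitochondrial leucyl-tRNA synthetase, had the largest difference of those with clear levels in every embryo. It was at 51.2 to 157 FPKM in BE embryos, at 94.4 to 161 FPKM in sgRNA embryos 1 to 4 and at 355 to 466 FPKM in sgRNA embryos 5 to 8 (log2 difference -1.42, SE 0.39, limma adjusted p = 0.32). *Lars2* was therefore higher in the same 4 libraries in which most genes were lower. *Unc45a*, a chaperone of myosin, was at 1.24 to 6.33 FPKM in BE embryos and at 7.11 to 11.2 FPKM in sgRNA embryos 1 to 4, with 4.72 to 8.72 FPKM in the rest. Its log2 difference of -0.91 was -1.06 without sgRNA embryos 5 to 8. The others named by the rule were *Tmem259*, *LOC100503496*, *Dgcr6*, *2210011C24Rik*, *Mbd3*, *Ooep*, *Pwwp2a* and *Ddx17*. Of all 10, only *Dgcr6* changed sign in any setting, to 0.03 within the eBE set. Here too the settings reuse the embryos from which the genes were picked. *LOC100503496* was at 5.61, 6.06, 3.29 and 30.8 FPKM in sgRNA embryos 5 to 8 and practically at 0 in the other 12. It passed the filter through the sgRNA embryos alone, so a lower mean in BE embryos was fixed by the filter.

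Within the BE4 set the 9 genes called lower in BE were *Lars2*, *Eid2*, *Ybx2*, *Zfc3h1*, *Prcc*, *Rab26os*, *Dgcr6*, *Tmem259* and *LOC100503496*. The last of these had passed the filter through the sgRNA embryos alone, so its direction was fixed by the filter. *Prcc*, a nuclear protein linked to splicing, was at 3.32 to 7.01 FPKM in BE embryos 1 to 4 and at 8.30, 19.9, 29.9 and 15.2 FPKM in sgRNA embryos 5 to 8. In the eBE set it was at 4.32 to 4.79 and at 2.77 to 8.11 FPKM, with no visible difference. *Ybx2*, which packages stored mRNA in germ cells and eggs, was at 0.636 to 1.82 FPKM in BE embryos 1 to 4 and at 2.97 to 5.6 FPKM in sgRNA embryos 5 to 8.

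The groups were also compared over gene lists with known roles, among them responses to foreign RNA and to DNA damage. No member of any of 29 lists was called in the 16 embryos, without sgRNA embryos 5 to 8, within the eBE set or after median-ratio scaling. Of 32 genes for sensing of foreign RNA and the interferon response, 9 reached the level for testing, 6 of them higher in BE and none at an unadjusted p of 0.05. Their median difference was 0.20, against 0.33 over all genes, and it was -0.20 without sgRNA embryos 5 to 8, against -0.02. *Bst2* (tetherin), an interferon-induced membrane protein, was at 3.10 to 26.5 FPKM in BE and at 2.96 to 26.7 FPKM in sgRNA embryos (log2 difference -0.41). Of 25 targets of p53, 21 were tested, 1 higher and 1 lower in BE at an unadjusted p of 0.05. At that limit 14.7% of all genes were higher and 0.615% lower. The p53 targets had a median of 0.22, and of -0.26 without those embryos. *Cdkn1a* (p21), the cell cycle inhibitor, was at 35.9 to 187 FPKM in BE and at 33.0 to 102 FPKM in sgRNA embryos (0.53).

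Genes of uracil excision and base repair, the pathway that answers a deaminated base, had a median of 0.45 over 22 tested members, with 3 higher in BE and none lower at an unadjusted p of 0.05, where 14.7% of all genes were higher. The median was -0.21 without sgRNA embryos 5 to 8 (6 of 23 members higher), beside -0.02 for all genes (4413 of 9322 higher). Within the eBE set it was -0.11, beside 0.04 for all genes. *Ung*, the uracil glycosylase that removes uracil from DNA, was at 52.3 to 122 FPKM in BE and at 45.8 to 138 FPKM in sgRNA embryos (log2 difference 0.15). *Apex1*, the endonuclease that cuts the site left behind, was at 157 to 369 FPKM in BE embryos and at 217 to 371 FPKM in sgRNA embryos 1 to 4. In sgRNA embryos 5 to 8 it was at 81.8, 57.1, 43.0 and 49.4 FPKM. Its difference was called within the BE4 set (2.33, limma adjusted p = 0.0068) and was -0.22 within the eBE set. Of the 5 cytidine deaminase genes of the mouse in the list, only *Apobec3* reached the level for testing, at 11.1 to 37.3 FPKM in BE and at 1.68 to 33.4 FPKM in sgRNA embryos (0.77). The list holds the mouse genes and was not made to measure the deaminase of the injected mRNA.

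Cell cycle, pluripotency and stress lists leaned towards BE in 16 embryos, as all genes did. Mitotic genes had a median of 0.64 (20 of 21 higher in BE), replication genes of 0.53 (16 of 19), pluripotency and ICM genes of 0.58 (16 of 18) and stress response genes of 0.28 (15 of 19), beside 0.33 and 7305 of 9267 for all genes. Leaving out sgRNA embryos 5 to 8, these medians were -0.07, -0.27, -0.05 and -0.08, beside -0.02 for all genes. After median-ratio scaling they were 0.25, 0.11, 0.16 and -0.06, beside -0.02. Within the BE4 set, where 10.5% of all genes were called higher in BE, so were 8 of the 21 mitotic genes, among them *Ccna2* (cyclin A2), and 4 of 19 replication genes, among them *Rrm2*, a subunit of the enzyme that makes deoxynucleotides. *Ccna2* was at 175 to 348 FPKM in BE embryos, at 274 to 303 FPKM in sgRNA embryos 1 to 4 and at 41.3 to 141 FPKM in sgRNA embryos 5 to 8. *Rrm2* was at 209 to 428, at 259 to 367 and at 47.0 to 75.2 FPKM in the same order. For both genes sgRNA embryos 1 to 4 lay inside the range of the BE embryos.

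Genes that respond to the targeted receptor were not called between the controls either. The table of the study used here holds 604 genes as lower and 474 as higher after *Nr5a2* knockdown, fewer than its text counts. Of the 604 all were tested, none was called, and 119 were higher and 2 lower in BE at an unadjusted p of 0.05, where 14.7% of all genes were higher and 0.615% lower. Their median was 0.48 with an SD of 0.50 between libraries of a group, and it was -0.08 without sgRNA embryos 5 to 8. The genes listed as higher after knockdown had a median of 0.39 over 469 tested members, and of 0.07 without those embryos. Within the BE4 set 103 of the 604 were called higher in BE and 1 lower, and 48 of 464 tested in the other list were higher and 2 lower, where 10.5% of all genes were higher. Both lists were made by the study in other embryos.

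Transcripts of earlier stages were not called in the 16 embryos either. Oocyte transcripts had a median of 0.17 over 20 tested members in 16 embryos, of 0.44 without sgRNA embryos 5 to 8 and of -0.21 within the BE4 set. Genes of the 2-cell burst had 0.51 over 16 members, 0.38 without those embryos and 0.73 within the BE4 set. All genes tested had medians of 0.33, -0.02 and 0.61 in the same order. In the BE4 set 1 of 15 burst genes was called higher in BE, where 10.5% of all genes were. Trophectoderm genes had a median of 0.09 over 13 members, and of -0.13 without sgRNA embryos 5 to 8. Their largest difference belonged to *Hand1*, a regulator of trophoblast giant cells, at 53.4, 49.0, 57.7, 34.7, 62.4, 47.6, 24.2 and 24.9 FPKM in BE embryos. In sgRNA embryos *Hand1* was at 12, 53.4, 7.19, 25.2, 15.2, 7.75, 31.9 and 7.72 FPKM. No BE embryo fell below 24.2 FPKM, whereas 5 sgRNA embryos lay at or under 15.2 FPKM, and 3 lay within the BE range. The log2 difference was 1.36 (SE 0.38, limma unadjusted p = 0.002, adjusted p = 0.32), and it was 1.12 without sgRNA embryos 5 to 8 and 0.93 within the eBE set.

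The second question was how far single embryos of 1 group differ from each other, gene by gene. The SD of log2(FPKM + 1) between embryos had a median of 0.538 in BE and of 0.771 in sgRNA embryos over the 8461 genes that averaged 1 FPKM or more in each group, and the median ratio of sgRNA to BE was 1.37. Within the BE4 set the ratio was 1.29, and within the eBE set it was 0.844, so the group with the larger spread differed between the sets. With the 8 BE embryos of both sets against sgRNA embryos 1 to 4 of 1 set it was 0.713. With each library compared only with its own set, the ratio was 1.07.

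The spread was tested for each gene with limma on the absolute deviations from the group mean. In 16 embryos 158 genes (1.7%) were more spread in sgRNA and 5 (0.054%) more spread in BE embryos at an adjusted p of 0.05. Of the 158 genes, 149 averaged 1 FPKM or more in each group. None of the 5 did: they passed the filter through the BE embryos alone, so a smaller spread in sgRNA embryos was fixed by the filter. Without sgRNA embryos 5 to 8 the numbers were 8 (0.0858%) and 1 (0.0107%). The 8 had likewise passed through the sgRNA embryos alone, and the 1 was *Snora81*, a small nucleolar RNA. At an unadjusted p of 0.05 the balance also moved, from 1757 (19.0%) against 109 genes (1.18%) to 180 (1.93%) against 661 (7.09%). After *Rn45s*, the genes with the strongest evidence for a larger spread in sgRNA embryos were *Impdh2*, *Sar1b*, *Eif3h* and *Smu1*. *Impdh2*, which makes guanine nucleotides, was at 58.9 to 92.7 FPKM in BE embryos, at 71.0 to 112 FPKM in sgRNA embryos 1 to 4 and at 12.5 to 21.6 FPKM in sgRNA embryos 5 to 8. *Eif3h*, a subunit of a translation initiation factor, was at 213 to 317, at 312 to 360 and at 53.3 to 81.3 FPKM in the same order. Each was thus even within the 2 sets of sgRNA embryos and different between them.

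**Figure D4:**
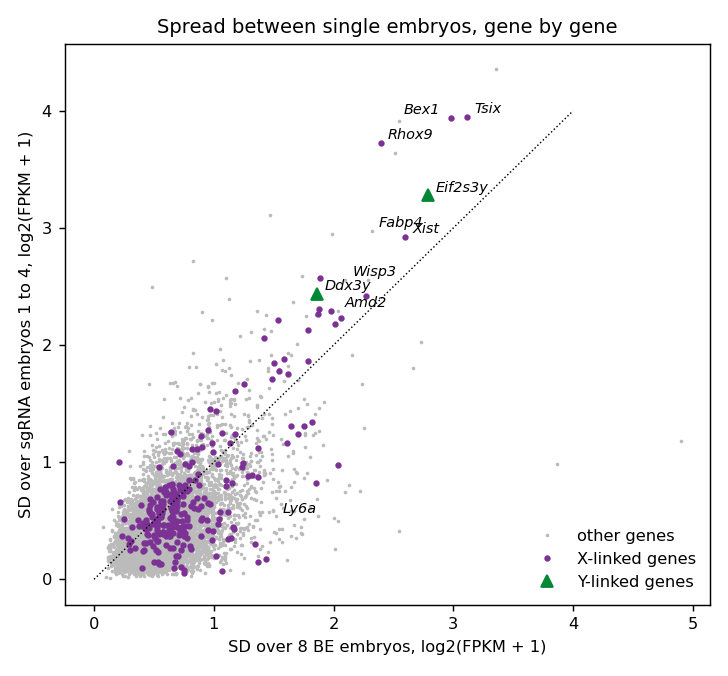
SD of log2(FPKM + 1) over the 8 BE embryos (x axis) against the SD over sgRNA embryos 1 to 4 (y axis), 1 point per gene, with X-linked genes in purple, Y-linked genes in green and the line of equal SD dotted. Most genes lie under the line (median ratio 0.713), and Y-linked and some X-linked genes lie far out along both axes.

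The 5 genes more spread in BE embryos, by way of the filter, were present in a few embryos only. *Mgst2*, a microsomal glutathione transferase, was at 12.2 FPKM in BE embryo 5, at 2.13 FPKM in BE embryo 8 and at 0 in the other 14. *Lmod3*, an actin nucleator of muscle, was at 1.71, 5.14 and 2.63 FPKM in BE embryos 2, 3 and 4 and under 1 FPKM elsewhere. *Ndufs5*, a subunit of respiratory complex I, was at 10.2 and 19.2 FPKM in BE embryos 6 and 8 and near 0 elsewhere. The remaining ones were *8030411F24Rik* and *8430408G22Rik*.

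The genes that varied most were partly the same in both groups. Because the SD depends on the level, genes were ranked by the excess of their SD over the trend, and the top 10% were taken in each group. In 341 of 8461 genes (4.03%) the excess was in the top 10% in both groups, so that 40.3% of the most variable genes in BE embryos were also among the most variable in sgRNA embryos. Without sgRNA embryos 5 to 8, 371 of 8512 genes (4.36%) were variable in both, which is 43.6% of the BE genes, and 221 genes were shared with the 341. Across genes, which are not independent of each other, Spearman's rho of the excess in the 2 groups was 0.461, and 0.374 within the eBE set.

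Genes on the sex chromosomes led this list. The X chromosome held 271 of the 7836 genes with a known position (3.46%) and 37 of the 300 variable genes with one (12.3%), so that 13.7% of the X-linked genes were variable. With sgRNA embryos 5 to 8 left out, 42 of 328 variable genes (12.8%) were X-linked. The median X-linked gene stood at percentile 71.1 of excess spread in BE and 65.7 in sgRNA embryos, against 48.7 and 49.4 for autosomal genes. Both Y-linked genes that reached the level for this ranking, *Ddx3y* and *Eif2s3y*, were variable. *Ddx3y* encodes an RNA helicase and *Eif2s3y* a subunit of a translation initiation factor.

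*Xist* (mm9 chrX:100655714-100678556, minus strand), the RNA that coats the X to be silenced, was at 10.8, 50.1, 0.995, 44.8, 1.14, 0, 0.0875 and 60.5 FPKM in BE embryos 1 to 8. In sgRNA embryos 1 to 8 it was at 0.176, 0.142, 47.6, 28.8, 0.265, 0.0904, 0 and 87.3 FPKM. *Xist* was thus clearly on in BE embryos 1, 2, 4 and 8 and in sgRNA embryos 3, 4 and 8. The FPKM of Y-linked genes summed to at most 0.174 in these 7 embryos and to between 19.2 and 84.6 in the other 9, where *Xist* was at most 1.14 FPKM. No library had both *Xist* and Y-linked transcripts at a clear level, which is the pattern of 1 embryo per library. A mixture of embryos of 1 sex would look the same. The groups held 4 and 3 of the embryos with *Xist* on, and both sets held some, but within the sets the split was uneven. In the BE4 set they were BE embryos 1, 2 and 4 and sgRNA embryo 8. In the eBE set they were BE embryo 8 and sgRNA embryos 3 and 4. Sex and injection were thus partly tied in the BE4 set, the set with called genes.

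*Eif2s3y* was at 18.7, 47.9, 60.0 and 24.8 FPKM in BE embryos 3, 5, 6 and 7 and at 61.6, 47.6, 12, 20.7 and 8.33 FPKM in sgRNA embryos 1, 2, 5, 6 and 7. In the other 7 embryos it was at most 0.174 FPKM. *Sry*, the gene that starts testis formation, was listed at 0 in all 16 embryos.

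Among X-linked and autosomal genes with a known position, *Rn45s* left out, the X-linked share of FPKM followed the same division. It was 3.87% to 5.23% in the 7 embryos with *Xist* on and 1.99% to 3.66% in the other 9. The ranges did not touch, but BE embryo 7 (3.58%) and sgRNA embryo 6 (3.66%) came close to the lowest embryo with *Xist* on, sgRNA embryo 8 (3.87%). Of the X-linked partners of the Y genes, *Eif2s3x* was at 81.8 to 111 FPKM in the 4 BE embryos with *Xist* on and at 49.7 to 79.9 FPKM in the other 4. In sgRNA embryos 3 and 4, with *Xist* on, it was at 116 and 104 FPKM, but in sgRNA embryo 8 it was at 28.5 FPKM, below sgRNA embryos 1 and 2 without *Xist* (49.3 and 52.2 FPKM). *Hprt*, an enzyme of purine salvage, was at 1905 to 4505 FPKM in the BE embryos with *Xist* on and at 1337 to 2671 FPKM in the others, so they overlapped. It was at 440 FPKM in sgRNA embryo 8 and at 2903 and 2035 FPKM in sgRNA embryos 1 and 2. These embryos were not averaged or tested by this division, since it was read from the data.

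Further X-linked genes of the variable list were off in most embryos without *Xist*. *Bex1*, a small protein of neural tissue in the adult, was at 11.6, 113, 0.901, 102, 24.0, 0, 0 and 84.9 FPKM in BE embryos 1 to 8. In sgRNA embryos 1 to 8 it was at 0, 0, 60.8, 183, 0, 0, 11 and 26.8 FPKM. All 7 embryos with *Xist* on had at least 11.6 FPKM, but BE embryo 5 and sgRNA embryo 7 had the transcript without *Xist*. *Rhox9*, a homeobox gene of the reproductive cluster on the X, was at 38.5, 4.16, 27.1 and 69.1 FPKM in BE embryos 1, 2, 4 and 8 and at 235, 8.08 and 0.899 FPKM in sgRNA embryos 3, 4 and 8. It reached at most 3.5 FPKM in the others. *Tsix*, the antisense partner of *Xist*, followed it at up to 148 FPKM, but Smart-seq2 keeps no strand, so reads of the 2 genes cannot be told apart.

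**Figure D5:**
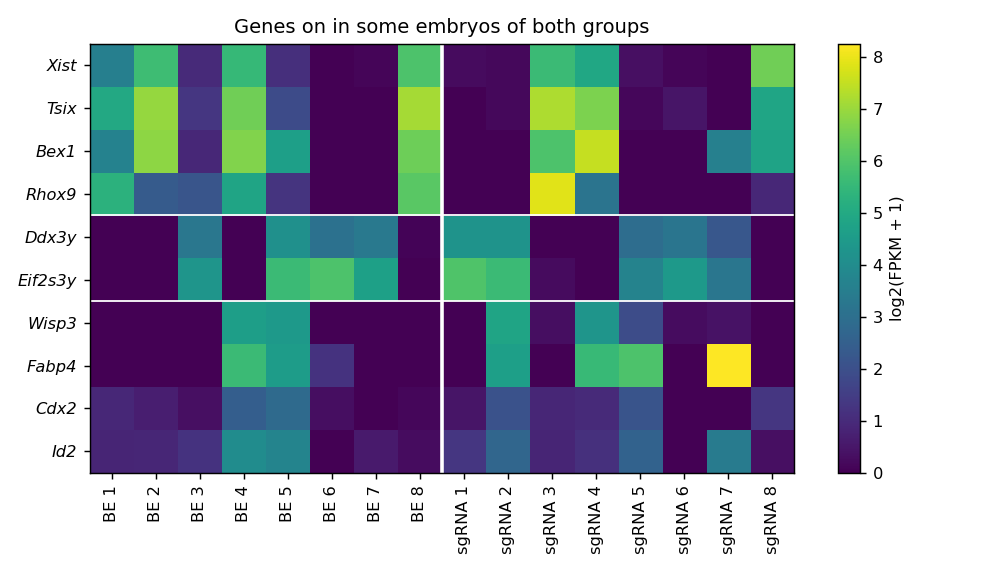
Heat map of log2(FPKM + 1) in each of the 16 embryos (columns, BE 1 to 8 and sgRNA 1 to 8) for *Xist*, *Tsix*, *Bex1*, *Rhox9*, *Ddx3y*, *Eif2s3y*, *Wisp3*, *Fabp4*, *Cdx2* and *Id2* (rows of the map), with brighter, yellower colour for higher values. *Xist* and the Y-linked genes are on in different embryos, and *Wisp3* and *Fabp4* share BE embryos 4 and 5 and sgRNA embryos 2, 4 and 5.

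Some variable genes outside the sex chromosomes were on in a few embryos of each group and at or near 0 in the others. *Wisp3*, a secreted matrix protein of the CCN family, was at 23.5 and 20.7 FPKM in BE embryos 4 and 5, at 27.4 and 18.5 FPKM in sgRNA embryos 2 and 4, at 2.78 FPKM in sgRNA embryo 5 and at no more than 0.312 FPKM in the other 11. *Fabp4*, a carrier of fatty acids, was at 48.2, 22.6 and 1.32 FPKM in BE embryos 4, 5 and 6. It was at 24.4, 46.2, 59.8 and 302 FPKM in sgRNA embryos 2, 4, 5 and 7 and at 0 in the other 9. BE embryos 4 and 5 and sgRNA embryos 2, 4 and 5 therefore had both transcripts, whichever molecule had been injected and in both sets.

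The first principal component of the 12 embryos without sgRNA 5 to 8 held 19.6% of their variance. Of the embryos with both transcripts, the 4 among these 12 were the lowest on it. BE embryo 5 (-47.3), sgRNA embryo 2 (-38.2), BE embryo 4 (-21.5) and sgRNA embryo 4 (-16.5) lay at 1 end, and BE embryos 3 (40.3) and 2 (38.2) at the other. The component therefore did not separate the groups. Across the 12 embryos it fell with the number of genes at an FPKM of 1 (Pearson's r = -0.817, permutation p = 0.00076, adjusted 0.00228 over 3 relations; Spearman's rho = -0.813, permutation p = 0.00187). Without BE embryo 5 and sgRNA embryo 2 the correlation was -0.546 (permutation p = 0.0969), so the relation rests on them. Within the 8 embryos of the eBE set r was -0.918, and the BE4 set had only 4 embryos left. The component was not related to the FPKM sum (r = -0.236, rho = -0.224, permutation p = 0.456) or to relative depth (r = 0.336, rho = 0.580, permutation p = 0.288 for r and 0.0511 for rho) beyond the limit of the test.

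Other autosomal genes in the variable list were *Ifitm2*, *Snhg9*, *Rab26os*, *Esp24*, *Rpph1*, *Fkbp6*, *Ly6a*, *Amd2*, *Crip1* and *Spink2*. *Fkbp6*, known from the piRNA pathway of germ cells, was at 1.62 to 107 FPKM in BE and at 0 to 111 FPKM in sgRNA embryos. *Snhg9*, a host of small nucleolar RNA, was at 155 FPKM in BE embryo 6, at 148 and 832 FPKM in sgRNA embryos 5 and 7 and at 0 in the other 13. *Ly6a* (Sca-1), a surface antigen, was at 20.6 to 445 FPKM in BE embryos, at 290 to 701 FPKM in sgRNA embryos 1 to 4 and at 0 to 74.7 FPKM in sgRNA embryos 5 to 8. Short RNA genes such as *Rpph1* (28.5 to 1018 and 47.7 to 2903 FPKM) are counted from few fragments in a poly(A) protocol, and their FPKM is divided by a small length.

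Genes of the 8C list stood high in the order of spread. Of its 45 tested members, 12 were variable in both groups, against 4.03% of all genes, with a median SD of 0.911 in BE and 1.17 in sgRNA embryos, and the median member stood at percentile 86.9 of the excess spread in BE and 86.8 in sgRNA embryos. The 25 ICM genes ranked stood at percentiles 83.7 and 81.7 with 4 variable members, and the 21 early 2-cell genes at 86.0 and 82.7 with 3. High ranks were not particular to the 8C list. Genes of the 2-cell burst stood at 88.3 and 75.5 with 4 of 12 variable, and those of minor genome activation at 87.2 and 82.9 with 5 of 28. Oocyte transcripts stood at 82.9 and 79.2 with 3 of 15. Mitotic genes stood at 60.8 and 72.3 with none, and base repair genes at 46.7 and 39.7 with none. Leaving out sgRNA embryos 5 to 8, the 8C list stood at 87.0 and 86.6 with 7 of 44 members variable, against 4.36% of all genes. ICM genes then stood at 83.5 and 89.1 with 7, early 2-cell genes at 86.1 and 86.1 with 4 of 19, mitotic genes at 61.0 and 32.9 and base repair genes at 46.8 and 42.6. The study chose the stage lists in other embryos.

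At the other end were genes with little spread for their level within each group. *Iws1*, a partner of elongating RNA polymerase, stayed between 5.51 and 8.35 FPKM in all 16 embryos. *Rpl18*, a ribosomal protein, stayed between 101 and 169 FPKM. *Larp7*, which binds the 7SK RNA, stayed between 24.1 and 41.3 FPKM, and *Dek*, a chromatin protein, between 28.1 and 47.2 FPKM. *Spry2*, an inhibitor of receptor tyrosine kinase signalling, was even within each group but at 17.7 to 27.1 FPKM in BE and at 9.97 to 20.0 FPKM in sgRNA embryos. The others of the 10 most even genes were *Ube4b*, *Brap*, *Spsb3*, *Rnps1* and *Ticrr*.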

How the data were processed

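Per the methods, the authors mapped paired-end Smart-seq2 reads to mm9 with TopHat and computed FPKM per gene with Cufflinks on the refFlat annotation; the deposited FPKM files hold no read counts, and no scaling between libraries was added by default. Their general methods describe pools of embryos and a legend single embryos. Another section names C57BL/6J mice without giving their sex. Groups came from the labels.

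From the FPKM of 24006 genes, log2(FPKM + 1) was fitted with limma 3.58.1 in R 4.3.3 (eBayes with a trend, Benjamini-Hochberg adjustment) after a filter at a mean FPKM of 1 in 1 group. The pseudocount of 1 understates differences of genes with low values. Spread was tested on absolute deviations from the group mean, scaled for group size. Single values of embryos were tested with exact permutation tests, and correlations with 100000 permutations (Python 3.11.15, scipy 1.17.1). Lowess trends used statsmodels 0.14.6. Chromosomes of 20804 genes came from GENCODE vM1 (mm9). Fits were tested on simulated data in which genes varied independently. The changed genes were drawn from those above about 5 FPKM, and level changes smaller than 2.5 on the log2 scale were not simulated. At an adjusted p of 0.05 the level fit over 16 embryos recovered 96 of 100 genes changed by 2.5. How well smaller changes or genes with lower values would be found is therefore not known. The spread fit recovered only 82 of 200 genes given 5 times the spread, and 2 of 200 within the eBE set. Many differences in spread can therefore be missed.

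Named genes were those with the smallest p per direction, level or spread, at a mean of 5 FPKM, the genes most variable or most even in both groups, genes named by the study, and the most abundant genes of each list. *Hmga2-ps1*, *Pnp*, *Id2*, *Dppa2*, *Krt8*, *Krt18* and the genes of short called lists were named after their values were seen. The members and lists were chosen with earlier results of these data known. Nothing in the labels says that embryos of a group came from separate matings or litters, so p-values measure the spread between these embryos. Replicate numbers did not pair the groups: deviations of same-numbered embryos correlated at -0.271 to 0.17 (median 0.0124). Alternatives were another pseudocount, other filters, median-ratio and quantile scaling, the library set as a term, each set alone, a replicate block, a fit without a trend and each embryo left out.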

Additional observations from a re-analysis of the deposited data

Results flagged for a closer look

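Of 32 sets of 8 values examined for an embryo far from the rest, 3 had one, and chance gives about 1 in 20. BE embryo 5 had 9251 genes at an FPKM of 1, the most of its group, with a gap to the next embryo of 0.568 of the group's range. The same embryo held *Wisp3*, *Fabp4* and the highest *Cdx2* value. The lowest median correlation with its own group was 0.76 in sgRNA embryo 7 (0.553 of the range), the embryo with the lowest *Nr5a2*, *Pou5f1*, *Gata6* and *Klf5*. *Nr1h3* was highest at 26.8 FPKM in sgRNA embryo 8 (0.588 of the range), which was within the range of the BE embryos.

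The difference between BE and sgRNA embryos changed between the eBE and the BE4 set for 424 genes (limma interaction, adjusted p under 0.05; chosen after the data had been seen), 416 of them towards higher values in BE in the BE4 set. The 8 others were *Eid2*, *Zfc3h1*, *Rab26os*, *Dgcr6*, *LOC100503496*, *Scand1*, *2500004C02Rik* and *1810032O08Rik*. Of these, *LOC100503496* had passed the filter through the sgRNA embryos alone. After median-ratio scaling 9 genes passed the same limit. The sgRNA embryos of the BE4 set are those with FPKM sums of 207918 to 268257 and *Rn45s* listed at 0. *Rn45s* was also listed at 0 in 3 of the 14 embryos that received both molecules, which makes 7 of 30 at the 8C stage.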

How the results depend on the processing

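No alternative called a gene between BE and sgRNA embryos except the fit within the BE4 set. It gave 17 genes at the stricter limits and 985 of 9330 at an adjusted p of 0.05. Of the 985, 290 belong to the lists, which held 2192 tested genes. Leaving out each embryo in turn gave 0 at both limits. The replicate block gave 0 calls too and left *Nr5a2* at 0.37 (limma adjusted p = 0.61). The log2 difference of *Nr5a2* reversed to -0.053 after median-ratio scaling and -0.071 after quantile normalization, and ranged from 0.08 to 0.53 over the embryos left out. The 163 genes that differed in spread became 954 with no filter, 295 at a mean FPKM of 5, 14 with median-ratio scaling, 8 with quantile normalization, 20 with the set as a term, 40 in the eBE set, 79 in the BE4 set, 9 without sgRNA embryos 5 to 8 and 5 around the group median. With 1 embryo left out they ranged from 24 to 227 and moved by over 1.5 times without BE embryo 1 (33), 2 (27), 3 (104), 5 (41), 6 (30), 7 (44) or 8 (24) or sgRNA embryo 8 (36), so this number depends on single embryos. The 341 genes variable in both groups became 576 with no filter, 169 at a mean FPKM of 5 and 167 for the top 5%, and ranged from 311 to 342 over the embryos left out. The median SD ratio of 1.37 became 1.29 in the BE4 set, 1.07 with the set as a term, 0.844 in the eBE set and 0.713 without sgRNA embryos 5 to 8, and ranged from 1.21 to 1.44 over the embryos left out. Without sgRNA embryos 5 to 8 the difference in FPKM sum became -4312, in genes at an FPKM of 1 -36.75 and in the median correlation with the own group -0.0272, which was -0.0204 in the eBE set. The causes were not tested. Without counts, no detection limit could be set for genes listed at 0.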

Other observations

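*Cdx2*, the trophectoderm regulator, was low in all embryos, with its highest values of 4.56 and 6.27 FPKM in BE embryos 4 and 5 and of 3.21 and 3.44 FPKM in sgRNA embryos 2 and 5, and at most 1.49 FPKM in the other 12. *Id2*, an inhibitor of helix-loop-helix factors that is expressed in trophectoderm, was chosen after its values were seen. It was at 15.0 and 12.3 FPKM in BE embryos 4 and 5, at 5.54, 5.08 and 9.67 FPKM in sgRNA embryos 2, 5 and 7 and at most 1.48 FPKM in the other 11. All of them except sgRNA embryo 7 also had *Wisp3* at 2.78 FPKM or more, and all had *Fabp4*. *Krt8*, a keratin of trophectoderm that was also chosen after its values were seen, did not share these embryos: it was highest in sgRNA embryo 7 (26.9 FPKM), sgRNA embryo 1 (21.3 FPKM) and BE embryo 3 (18.2 FPKM), and at 4.22, 12, 6.86 and 6.09 FPKM in BE embryos 4 and 5 and sgRNA embryos 2 and 4. *Krt18* was highest in sgRNA embryo 7 (67.6 FPKM) and BE embryo 1 (43.5 FPKM). *Spink2*, a protease inhibitor, was highest in BE embryo 5 (90.3 FPKM) and sgRNA embryo 2 (69.0 FPKM), and at 23.5 and 40.1 FPKM in BE embryo 4 and sgRNA embryo 4, but reached 42.8 FPKM in BE embryo 1, which had neither *Wisp3* nor *Fabp4*. *Crip1*, a LIM domain protein, was highest in BE embryo 4 (357 FPKM) and at 114 FPKM in BE embryo 5, but reached 212 FPKM in BE embryo 3, at the other end of the first principal component.

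*Dppa2*, a chromatin factor of early embryos, was also chosen after its values were seen. It was at 94.3 to 279 FPKM in BE and at 51 to 151 FPKM in sgRNA embryos, with a log2 difference of 0.82 (limma adjusted p = 0.32) that was 0.69 without sgRNA embryos 5 to 8.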
